A study of Rattus norvegicus with 10 samples.

Results

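The 7 genes of the rat kidney described here are Ugt2b7, Ugt2b35, Abcc2, Abcc4, Csmd1, Cldn17 and Tsku. They were selected on measured values of these same arrays, as genes that were higher under dietary fish oil than under vegetable oil, and which of the oil comparisons was used is not recorded. They make up 7 of the 14506 genes that could be named from a probe set with 1 symbol, and 9 of the 29214 probe sets. Each gene is given by the probe set with the highest mean over the 10 arrays, which matters only for Abcc4, with 3 probe sets. By name, Ugt2b7 and Ugt2b35 belong to glucuronidation and Abcc2 and Abcc4 to export. Csmd1, Cldn17 and Tsku have neither role.

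Glucuronidation joins glucuronic acid, supplied as UDP-glucuronate, to drugs, steroids, bile acids and oxidised lipids, which makes them soluble. UDP-glucuronosyltransferases of the endoplasmic reticulum carry out the transfer, and ATP-driven pumps of the ABCC family then move the conjugates out of the cell. In the kidney, Abcc2 and Abcc4 lie in the apical membrane of the proximal tubule, from which conjugates and other organic anions reach the urine. Csmd1 encodes a large membrane protein of CUB and sushi domains that regulates complement, Cldn17 a claudin of the tight junction that forms an anion-selective pore, and Tsku tsukushi, a secreted leucine-rich proteoglycan.

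Kidney RNA of male weanling Wistar rats was hybridised to 10 arrays after 6 days of diet, 1 array for each pool of 3 animals, with 2 pools per group. The series asks about the kidney failure that follows lack of choline and about its prevention by fish oil. The control vegetable oil and control fish oil groups received choline, and the deficient vegetable oil and deficient fish oil groups did not. The necrotic group was fed the same choline-deficient diet with vegetable oil and carries the word necrotic in its labels. It had no diet of its own, and how its animals were sorted is not stated. The fish oil was menhaden oil, while the vegetable fat is called corn oil in the sample labels and corn and hydrogenated oils in the protocol. Whole kidneys give 1 value for all their cells, so fewer cells of a type and less RNA per cell cannot be told apart.

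As a check of the labelled tissue, 1 marker of the proximal tubule is given here. Slc34a1, the phosphate carrier of the proximal brush border, lay between 13.69 and 14.03 outside the necrotic group and at 10.58 and 10.43 within it. The median of an array lay between 7.28 and 7.43. All levels are log2 intensities and all differences are log2 differences, so 1 unit is a doubling. Errors are moderated standard errors (SE) from limma, fitted to all 5 groups, and a probe set is called at an adjusted p below 0.05 over all 29214 probe sets. A level is comparable between arrays but not between genes. By macrophage markers, replicate 2 of the deficient vegetable oil kidneys lay nearer the necrotic kidneys than replicate 1 did. Its 15 macrophage markers averaged 9.75 against 9.23, with 10.30 and 10.36 in the necrotic pools. Other marker lists went both ways. Replicate 2 was nearer by proximal tubule markers (12.30 against 12.52, with 11.09 and 10.97 in the necrotic pools). Replicate 1 was nearer by hepatocyte markers (7.60 against 8.29 in replicate 2, with 7.30 and 7.08 in the necrotic pools).

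Windows around the start of each gene (RefSeq, GRCr8, from 250 bases before the start to 50 after it) were found for 6 of the 7 genes. That of Csmd1 was not used here. The windows of Ugt2b7 (chr14:21251285-21251584, plus strand) and Ugt2b35 (chr14:21208191-21208490, plus strand) are shown because the genes are neighbours in the Ugt2b cluster. The array may not separate their transcripts fully. The windows cannot show this, since most of their bases lie before the start of the gene. Capitals mark the 5 runs of at least 12 bases that are the same in both.
Ugt2b7: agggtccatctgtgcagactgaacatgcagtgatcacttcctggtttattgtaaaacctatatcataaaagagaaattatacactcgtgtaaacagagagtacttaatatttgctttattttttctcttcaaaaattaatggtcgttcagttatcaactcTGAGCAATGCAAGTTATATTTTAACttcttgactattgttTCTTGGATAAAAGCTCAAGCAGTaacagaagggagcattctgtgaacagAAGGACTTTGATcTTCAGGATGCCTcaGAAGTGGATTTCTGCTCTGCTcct
Ugt2b35: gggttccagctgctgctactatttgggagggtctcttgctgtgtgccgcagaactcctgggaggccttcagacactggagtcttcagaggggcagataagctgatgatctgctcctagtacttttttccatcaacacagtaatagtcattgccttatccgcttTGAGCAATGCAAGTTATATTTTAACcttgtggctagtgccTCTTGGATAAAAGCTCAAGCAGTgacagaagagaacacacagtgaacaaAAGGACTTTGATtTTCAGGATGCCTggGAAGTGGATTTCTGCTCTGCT
A local alignment of the windows covered 181 bases with 150 identical (82.9%) and 1 gap, and the longest shared run had 25 bases. The shared stretch takes in the start of both genes. The more distant bases were not part of the alignment.

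The windows of the exporters are shown for contrast between themselves: that of Abcc2 (chr1:252613625-252613924, plus strand) has 44.7% G and C and that of Abcc4 (chr15:102181315-102181614, minus strand) 75.3%, where the median of 33469 promoter windows was 51.7%. Capitals in the Abcc2 window mark matches to the motifs searched, and the Abcc4 window had none.
Abcc2: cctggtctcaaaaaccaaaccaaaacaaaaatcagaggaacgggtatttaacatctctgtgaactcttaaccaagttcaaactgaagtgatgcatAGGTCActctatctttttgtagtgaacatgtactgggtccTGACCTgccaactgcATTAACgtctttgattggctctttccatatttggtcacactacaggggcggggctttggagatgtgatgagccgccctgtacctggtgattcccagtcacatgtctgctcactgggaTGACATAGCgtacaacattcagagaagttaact
Abcc4: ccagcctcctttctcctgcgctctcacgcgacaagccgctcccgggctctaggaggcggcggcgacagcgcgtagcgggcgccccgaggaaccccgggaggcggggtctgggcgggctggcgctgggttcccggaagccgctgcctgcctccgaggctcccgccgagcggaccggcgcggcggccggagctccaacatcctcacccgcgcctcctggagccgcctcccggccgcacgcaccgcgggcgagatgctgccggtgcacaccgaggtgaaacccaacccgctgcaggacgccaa
Both strands of each window were searched for 4 motifs. The core of the antioxidant response element, TGACNNNGC, occurred in 12.1% of all windows and in 1 of the 6, that of Abcc2 at position 18 after the start. The hexamer AGGTCA, to which nuclear receptors bind, occurred in 16.2% of windows, and its only matches here were in Abcc2 at -155 on the plus and -115 on the minus strand. The hexamer GTTAAT of the HNF1 element occurred in 7.45% of windows and matched Abcc2 at -100 on the minus strand. A direct repeat of AGGTCA with 1 base between the copies occurred in 0.0538% of windows and in 0 of the 6. No position was shared between matches. Ugt2b7, at 36.3% G and C, Ugt2b35 at 46.7%, Cldn17 at 42.3% and Tsku at 70.0% held none of the 4 motifs. A match describes letters and not a bound site.

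Ugt2b7, a UDP-glucuronosyltransferase (probe set 10771978), read 6.32 and 6.00 in the control vegetable oil pools, 5.77 and 5.72 in the deficient vegetable oil pools and 5.62 and 5.56 in the necrotic pools. Under fish oil it read 11.52 and 11.23 with choline and 10.63 and 10.74 without. The 4 fish oil pools thus stood far above the other 6, and the gap from the lowest fish oil pool to the highest control or deficient vegetable oil pool was 4.31. Between the 2 pools of a group it differed by at most 0.31. All its vegetable oil readings lay below the array medians of 7.28 to 7.43. How much of them is background signal, on which its folds depend, was not tested.

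Ugt2b35, its neighbour and paralog (probe set 10771971), was more variable. It read 10.13 and 9.27 in the control vegetable oil pools, 9.06 and 7.20 in the deficient vegetable oil pools and 5.56 and 5.68 in the necrotic pools. In the fish oil pools it read 12.93 and 11.66 with choline and 11.32 and 11.58 without. The fish oil pools were again all highest, by a gap of 1.18, and the 5 groups did not overlap in their pools. The pools of a group differed by up to 1.86, the largest such gap among the 7 genes, and this was in the deficient vegetable oil group. The low value there is that of replicate 2, the pool with more macrophage marker signal. That value and both necrotic readings lay below the array medians of 7.28 to 7.43. How much of the necrotic readings is background signal was not tested. The differences of Ugt2b35 that involve the necrotic kidneys depend on it.

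Abcc2, the apical pump also called MRP2 (probe set 10940643), read 9.78 and 9.94 in the control vegetable oil pools, 10.28 and 10.45 in the deficient vegetable oil pools and 10.16 and 9.95 in the necrotic pools. With fish oil it read 12.24 and 12.37 with choline and 11.79 and 12.05 without. Unlike the glucuronosyltransferases, it was lowest in the choline-fed vegetable oil kidneys, and the fish oil pools lay above all others by a gap of 1.34.

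Abcc4, the pump also called MRP4 (probe set 10785826), read 10.91 and 10.93 in the control vegetable oil pools, 11.08 and 10.90 in the deficient vegetable oil pools and 10.78 and 10.74 in the necrotic pools. Fish oil pools read 12.43 and 12.27 with choline and 12.01 and 12.37 without, so that the fish oil groups overlapped each other but lay 0.94 above the highest vegetable oil pool. Its other probe sets, 10785846 and 10785865, differed by 1.44 and 1.50 between fish and vegetable oil with choline and by 1.32 and 1.52 without. The 3 probe sets therefore gave the same order of the oils.

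Csmd1 (probe set 10789301) read 6.58 and 6.34 in the control vegetable oil pools, 6.63 and 6.35 in the deficient vegetable oil pools and 6.54 and 6.16 in the necrotic pools. It read 9.25 and 9.24 in the control fish oil and 8.81 and 8.90 in the deficient fish oil pools. The 3 vegetable oil groups overlapped, and the fish oil pools lay above them by 2.19. As for Ugt2b7, the vegetable oil readings lay below the array medians.

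Cldn17 (probe set 10752941) read 7.23 and 7.15 in the control vegetable oil pools, 7.13 and 7.54 in the deficient vegetable oil pools and 7.93 and 7.72 in the necrotic pools. With fish oil it read 8.65 and 8.89 with choline and 8.40 and 8.93 without. It was the only one of the 7 whose necrotic pools both lay above both other vegetable oil groups, and the fish oil pools were still clear of the highest control or deficient vegetable oil pool by 0.86.

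Tsku (probe set 10723822) read 10.86 and 10.81 in the control vegetable oil pools, 10.07 and 10.34 in the deficient vegetable oil pools and 9.96 and 9.63 in the necrotic pools. Fish oil pools read 11.73 and 11.81 with choline and 11.77 and 11.72 without. The fish oil groups overlapped, and the 3 vegetable oil groups stood in steps without overlap, with the necrotic pools lowest.

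**Figure D1:**
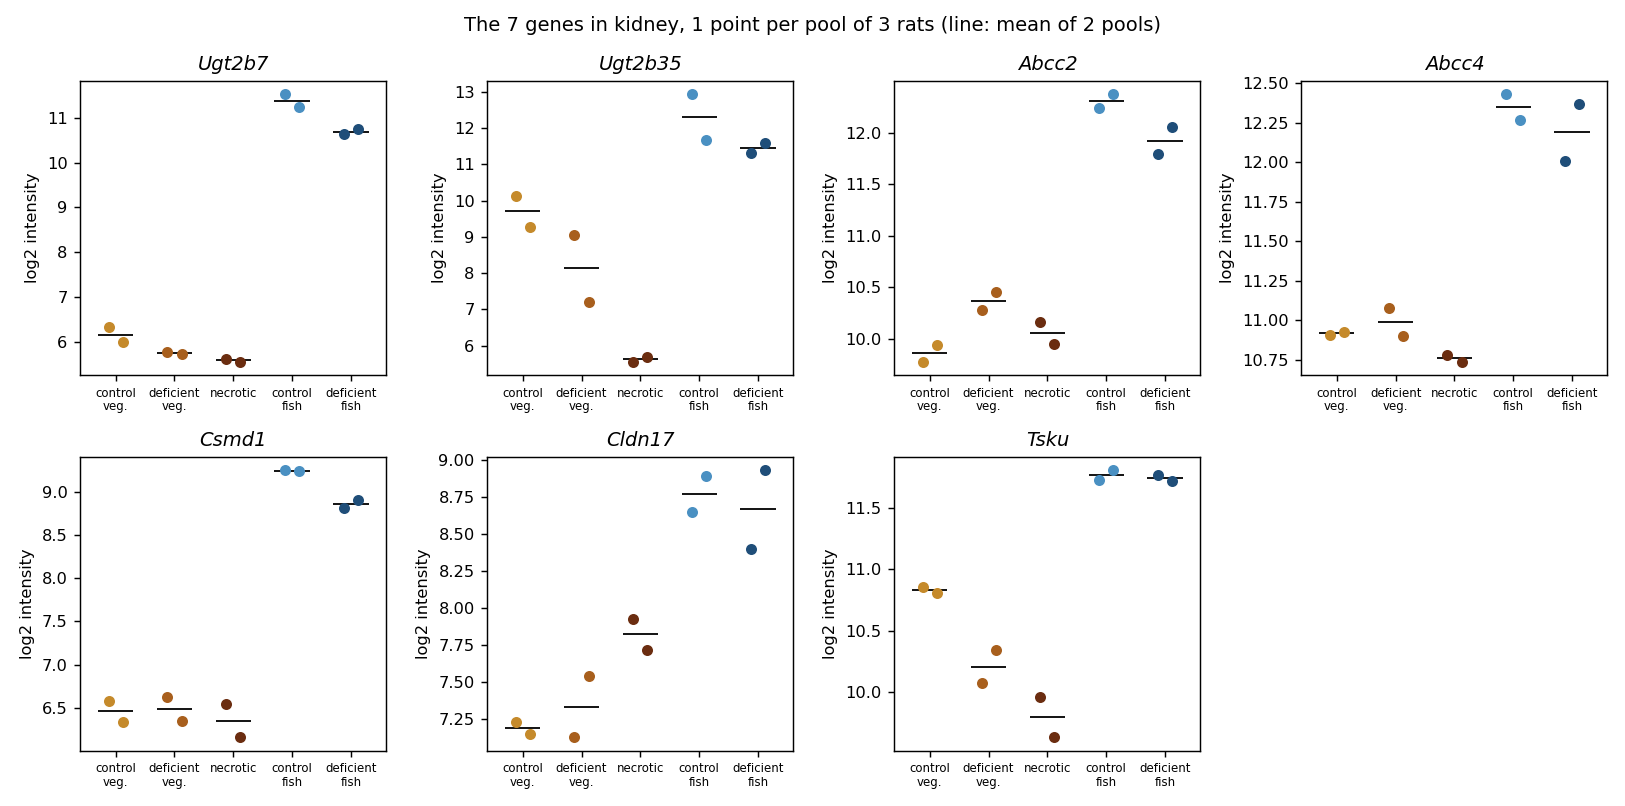
Log2 intensity (vertical axis, each panel with its own scale) of the 7 genes in the 5 diet groups; each point is 1 pool of 3 rats and the line is the mean of the 2 pools. All 4 fish oil pools (blue) lay above all 6 vegetable oil pools in each panel, by 4.31 for Ugt2b7 and by 0.86 for Tsku over the control and deficient vegetable oil pools.

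The order of the group means was the same at the top for all 7 genes: control fish oil first and deficient fish oil second. Fish oil above vegetable oil, here and gene by gene above, reflects how the genes were chosen and is no result. The pools of the fish oil groups overlapped for Abcc4, Cldn17 and Tsku. For these genes the order of the fish oil groups turned when 1 pool was left out. Ugt2b7, Ugt2b35 and Tsku then followed the order control, deficient, necrotic among the vegetable oil groups, with no overlap between neighbours. Abcc2 had deficient, necrotic and control, also without overlap, although necrotic and control pools came within 0.01 of each other. For Abcc4 and Csmd1 the order was deficient, control and necrotic, with deficient and control overlapping in both genes and control and necrotic overlapping in Csmd1. Cldn17 had necrotic, deficient and control, and the last 2 overlapped. Such steps can be small: for Ugt2b7 necrotic minus deficient vegetable oil was -0.15 (limma, adjusted p = 0.628). Orders and overlaps, here and gene by gene above, were read for the 7 genes only. With 2 pools per group, how many of all probe sets show the same was not counted.

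The oil differences that follow are descriptions, since oil differences chose the genes, and nothing is read from the counts called. With choline, fish oil exceeded vegetable oil by 5.22 ± 0.15 for Ugt2b7 (37.2-fold), 2.59 ± 0.60 for Ugt2b35 (6.04-fold), 2.44 ± 0.14 for Abcc2 (5.43-fold) and 1.43 ± 0.14 for Abcc4 (2.7-fold). Csmd1 differed by 2.78 ± 0.16 (6.88-fold), Cldn17 by 1.58 ± 0.20 (2.99-fold) and Tsku by 0.94 ± 0.14 (1.91-fold). Ugt2b7 was the largest of these and Tsku the smallest. Ugt2b35 was at 1.95 without control fish oil replicate 1 and was 3.23 without replicate 2. Of all probe sets 0.185% were called in this comparison and 0.0856% were called higher, against 5 of the 7.

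Without choline, fish oil exceeded deficient vegetable oil by 4.94 ± 0.15 for Ugt2b7 (30.7-fold), 3.32 ± 0.60 for Ugt2b35 (9.96-fold), 1.56 ± 0.14 for Abcc2 (2.95-fold) and 1.20 ± 0.14 for Abcc4 (2.3-fold). Csmd1 differed by 2.37 ± 0.16, Cldn17 by 1.33 ± 0.20 and Tsku by 1.54 ± 0.14. Ugt2b35 was at 4.25 without deficient vegetable oil replicate 1 and at 2.39 without replicate 2. All 7 were among the 0.346% of probe sets called higher (1.74% in either direction). Against the necrotic kidneys the differences were 5.09 for Ugt2b7, 5.83 for Ugt2b35 (56.8-fold), 1.87 for Abcc2, 1.43 for Abcc4, 2.51 for Csmd1, 0.84 for Cldn17 and 1.95 for Tsku. There all 7 were called higher, as were 9.25% of all probe sets (19.7% in either direction). Of these comparisons, this was the one in which Ugt2b35 had a larger difference than Ugt2b7. With median centring the calls split into 3483 higher and 2282 lower (60.4% higher), where the values as deposited gave 2701 and 3062 (46.9%).

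Averaged over both choline levels, the difference was 5.08 for Ugt2b7, 2.96 for Ugt2b35, 2.00 for Abcc2, 1.32 for Abcc4, 2.58 for Csmd1, 1.46 for Cldn17 and 1.24 for Tsku. Their median was 2.00 where that of all probe sets was 0.027. This comparison called 2.25% of probe sets, 0.555% as higher, and all 7. Macrophage markers moved with the oil: 11 of 15 fell and 0 rose in the average comparison, and their mean level ran from 8.26 to 8.41 in the fish oil pools, from 8.59 to 8.72 in the control vegetable oil pools and from 9.23 to 9.75 in the deficient vegetable oil pools. Without choline 12 of the 15 were called lower (median -1.26), and with choline 0 were called (median -0.39). Their part in the result was not tested.

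Hepatocytes also express Ugt2b genes and Abcc2. Of 18 hepatocyte markers 0 rose and 1 fell with fish oil in the average comparison (Fgb, a fibrinogen chain, by 2.28 ± 0.24), and their mean level was 7.47 to 7.91 in the fish oil pools and 7.60 to 8.47 in the control and deficient vegetable oil pools. Of 16 proximal tubule markers 0 rose and 1 fell (Slc7a7, by 0.53 ± 0.08), with means of 12.47 to 12.57 and 12.30 to 12.69. Of all probe sets 2.25% were called in this comparison. The part of either cell type in the oil differences was not tested.

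**Figure D2:**
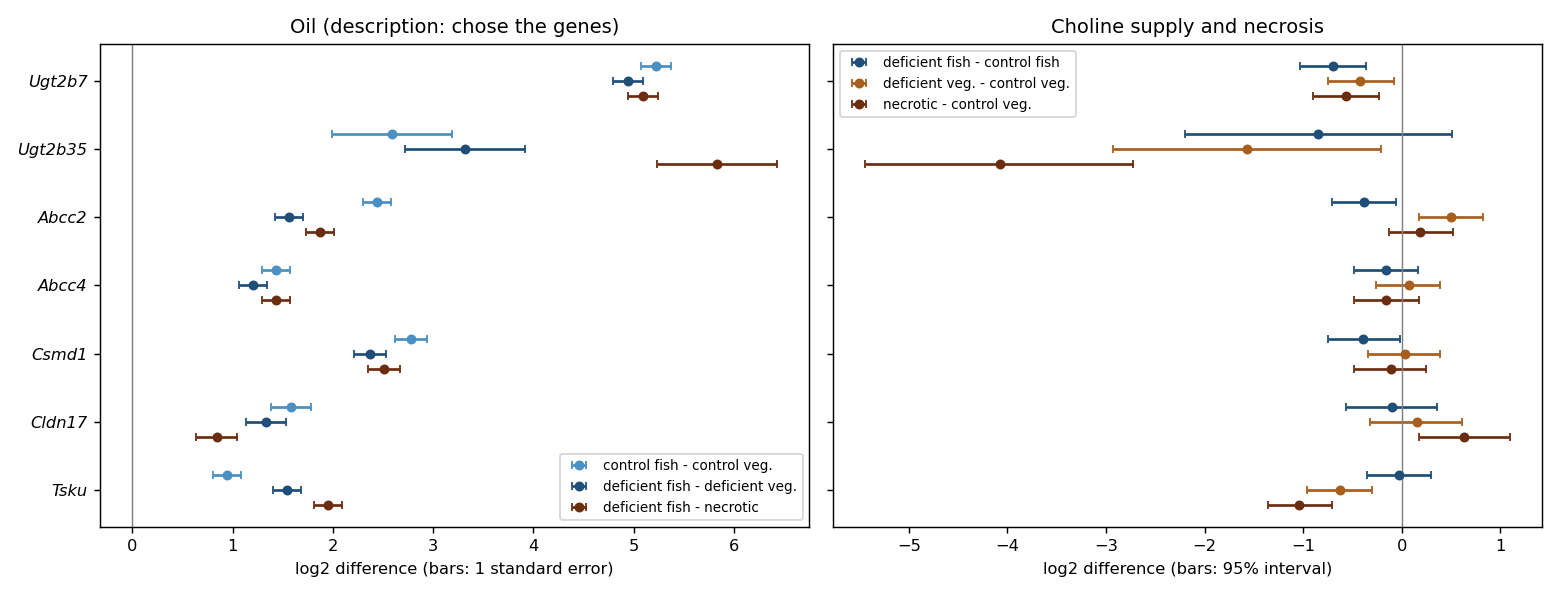
Log2 differences of the 7 genes; the left panel gives fish oil against vegetable oil (points with bars of 1 standard error) and the right panel the comparisons of choline supply and necrosis (bars: 95% interval). Left, every point is above 0, from 0.84 for Cldn17 to 5.83 for Ugt2b35; right, the necrotic point of Ugt2b35 lies at -4.08 and that of Tsku at -1.04.

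Differences by choline supply and necrosis were tested. Their arrays also enter the oil differences, 1 of which sets deficient fish oil against the necrotic kidneys, so these tests are not independent of how the genes were chosen. The dependence on oil is itself a difference between 2 oil differences. Under fish oil, none of the 7 was called for lack of choline: limma called 0% of all probe sets, of which 1036 had an unadjusted p below 0.05. The differences, deficient minus control, were all negative, at -0.70 (95% interval -1.03 to -0.36) for Ugt2b7, -0.85 (-2.20 to 0.51) for Ugt2b35 and -0.38 (-0.71 to -0.06) for Abcc2. They were -0.16 (-0.48 to 0.16) for Abcc4, -0.39 (-0.75 to -0.02) for Csmd1, -0.10 (-0.57 to 0.36) for Cldn17 and -0.03 (-0.35 to 0.30) for Tsku, each with an adjusted p of 1. Their median was -0.38 against -0.004 for all probe sets. The intervals of Ugt2b7, Abcc2 and Csmd1 lie below 0 without adjustment for the number of probe sets. The signs for Abcc4, Cldn17 and Tsku turned when 1 pool was left out.

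Under vegetable oil without necrosis, 0 of the 7 were called for lack of choline, with 1.13% of all probe sets called. The differences were -0.42 for Ugt2b7 (adjusted p = 0.241), -1.57 for Ugt2b35 (0.272), 0.50 for Abcc2 (0.165) and -0.63 for Tsku (0.0906). Abcc4 differed by 0.07, Csmd1 by 0.03 and Cldn17 by 0.15 (adjusted p from 0.767 to 0.951), and the sign of Csmd1 turned under 3 other scalings. Ugt2b35 ranged from -2.50 to -0.64 when 1 array was left out, with -0.64 without replicate 2 of the deficient vegetable oil kidneys. Tsku was called after median centring (adjusted p = 0.0465), with the filter at the 50th percentile (0.0413) and with the trend and robust prior (0.0456).

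In the necrotic kidneys, set against control vegetable oil, both glucuronosyltransferases and Tsku were lower, and the pumps were not called. Ugt2b35 fell by 4.08 ± 0.60 (adjusted p = 0.00192), Tsku by 1.04 ± 0.14 (0.00149) and Ugt2b7 by 0.57 ± 0.15 (0.0253). These 3 of 7 compare with 10.7% of probe sets called lower and 20.9% called in either direction. As deposited, 2985 probe sets were higher and 3113 lower (49% higher); with median centring, under which the median difference over all probe sets went from 0.063 to -0.044, 2123 were higher and 3739 lower (36.2%). For the rest the differences were 0.19 (-0.13 to 0.52) for Abcc2, -0.16 (-0.48 to 0.17) for Abcc4, -0.11 (-0.48 to 0.25) for Csmd1 and 0.63 (0.17 to 1.10) for Cldn17, where the adjusted p was 0.0602. Ugt2b35 and Tsku kept their calls under every alternative tried. Both glucuronosyltransferases read between 5.56 and 5.68 in the necrotic pools, below the array medians. How much of this is background signal was not tested. Ugt2b7 lost its call without necrotic replicate 1 (adjusted p = 0.0777), necrotic replicate 2 (0.0917) or control vegetable oil replicate 1 (0.173), and when only these groups were fitted (0.0557). Cldn17 gained a call, at adjusted p from 0.0294 to 0.0493, under 8 alternatives, among them both filters on dim probe sets.

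Markers of the tubule moved with necrosis. Of the 16 proximal tubule markers 13 fell and 0 rose, and their mean was 11.09 and 10.97 in the necrotic pools against 12.64 and 12.69 with control vegetable oil. Of the 15 macrophage markers 12 rose and 0 fell, from 8.59 and 8.72 to 10.30 and 10.36. Of 17 markers of thick limb, distal tubule and collecting duct 13 fell. Their part in the falls of Ugt2b35, Ugt2b7 and Tsku was not tested.

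Against the deficient vegetable oil pools, which had the same diet, Ugt2b35 was the 1 gene of 7 called, lower by a difference of -2.51 ± 0.60 (adjusted p = 0.033). The share called lower among all probe sets was 5.08%, and 9.79% in either direction. The call was lost without either necrotic pool (adjusted p = 0.118 and 0.115), without replicate 1 of the deficient vegetable oil group (-1.58, adjusted p = 0.166) and without either deficient fish oil pool (0.0511). Without replicate 2 of the deficient vegetable oil group the difference was -3.44. The other 6 differed by between -0.41 (Tsku) and 0.49 (Cldn17).

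The test of whether the choline difference depended on the oil gave 0 of 7 calls in the kidneys without necrosis, with 0.103% of probe sets called. The nearest to a call were Abcc2, at -0.88 ± 0.20 (unadjusted p = 0.00199, adjusted p = 0.221), and Tsku, at 0.60 ± 0.20 (adjusted p = 0.406). For Abcc2 lack of choline gave -0.38 under fish oil and 0.50 under vegetable oil. The intervals of the other 5 included 0.

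With the necrotic kidneys in place of the deficient vegetable oil kidneys, the dependence on oil was called for 2 of 7, against 4.9% of probe sets called higher and 8.72% in either direction. With median centring the split of calls was 1670 higher and 818 lower (67.1% higher), and as deposited 1431 and 1117 (56.2%). Ugt2b35 gave 3.24 ± 0.84 (adjusted p = 0.0496), from -0.85 under fish oil and -4.08 under vegetable oil. Tsku gave 1.01 ± 0.20 (adjusted p = 0.0188), from -0.03 and -1.04. Abcc2 was at -0.57, Cldn17 at -0.74, Csmd1 at -0.27, Ugt2b7 at -0.13 and Abcc4 at 0.00, none of them called. The call for Ugt2b35 was lost without any 1 of 7 of the 8 arrays compared (all but control fish oil replicate 1), with differences from 2.60 to 3.67, and under 3 other settings (adjusted p from 0.0531 to 0.0584). The call for Tsku was lost without any 1 of the 6 control and deficient fish oil and control vegetable oil arrays, at adjusted p from 0.0515 to 0.0741. Cell type markers moved in the same contrast: 12 of 16 proximal tubule markers (median 1.45) and 11 of 17 markers of thick limb, distal tubule and collecting duct (median 1.46) were called higher, and 10 of 15 macrophage markers lower (median -1.62). Their part in the calls for Ugt2b35 and Tsku was not tested.

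Other glucuronosyltransferase probe sets were read to see how far the pattern went. Probe set 10771957, listed under 2 Ugt2b symbols and so left without a gene name, read 7.07 and 6.85 in the control vegetable oil pools, 6.33 and 5.84 in the deficient vegetable oil pools, 4.99 and 5.07 in the necrotic pools, 10.34 and 9.01 in the control fish oil pools and 8.67 and 8.82 in the deficient fish oil pools. It rose by 2.69 ± 0.26 with fish oil on average (adjusted p = 0.0026) and fell by 1.93 ± 0.36 in the necrotic kidneys (0.00626). It thus shared the group order of Ugt2b35 (Ugt2b7 likewise), and whether the 3 probe sets measure each other's transcripts was not tested, since no probe sequence was used. In the single comparisons its adjusted p was 0.0345 with choline, a call lost without any 1 of 7 of the 10 arrays, and 0.0118 without choline, a call lost without any 1 of 3 (deficient vegetable oil replicate 2 and both deficient fish oil pools).

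A probe set listed under 8 Ugt1a symbols, 10925158, read 11.00 and 11.08 in the control vegetable oil pools, 10.95 and 10.63 in the deficient vegetable oil pools and 10.97 and 10.83 in the necrotic pools. It read 11.75 and 11.72 in the control fish oil and 11.52 and 11.80 in the deficient fish oil pools. Its fish oil pools were thus above all others, by 0.78 ± 0.10 on average (adjusted p = 0.00999; 0.0553 without control vegetable oil replicate 1). Its difference in the necrotic kidneys was -0.15. Ugt2b, Ugt2b1, Ugt2b37, Ugt2a1 and Ugt2a3 lay between 3.35 and 5.05 on every array and were not called in the average oil comparison (adjusted p from 0.449 to 0.846). Of these Ugt2b37 lies next to Ugt2b35 in the cluster on chromosome 14. It is also 1 of the 2 symbols of probe set 10771957, which rose with fish oil. The 2 probe sets with this symbol thus differed, and which of them holds for the gene was not tested. Against the necrotic kidneys Ugt2b was higher in deficient fish oil kidneys by 0.79 ± 0.22 (adjusted p = 0.0344).

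**Figure D3:**
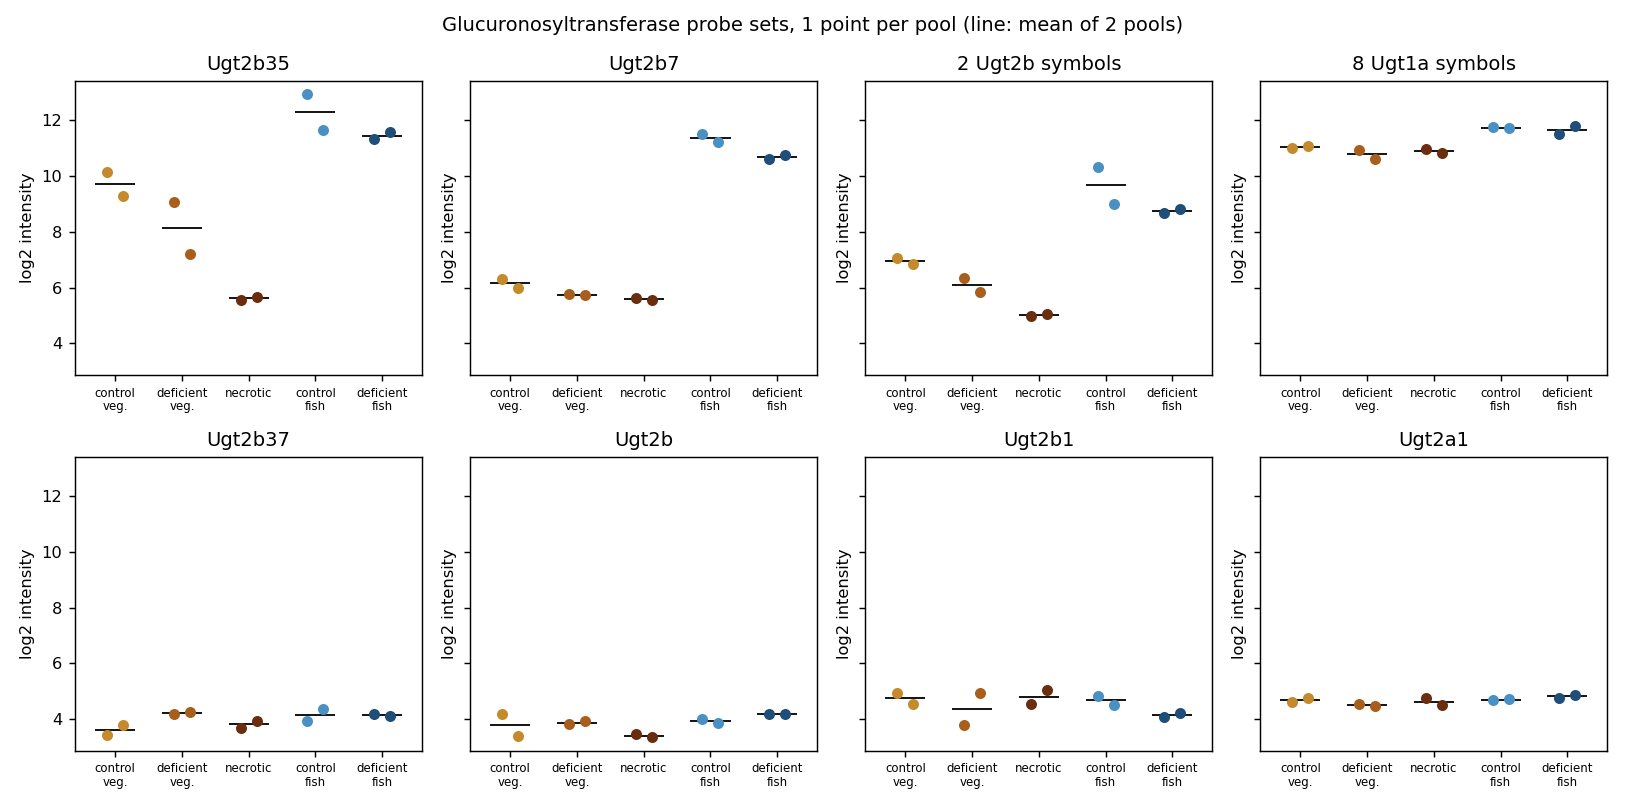
Log2 intensity (vertical axis, the same scale in all panels) of 8 glucuronosyltransferase probe sets in the 5 diet groups; each point is 1 pool and the line is the mean of the 2 pools. Ugt2b7, Ugt2b35 and the probe set of 2 Ugt2b symbols fall in the order of fish oil, vegetable oil and necrotic kidneys, while the 4 panels of the lower row stay at or below 5.05.

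Other genes of conjugation and transport were counted from lists. The average oil comparison called 2.25% of all probe sets. There 0 of 6 other Ugt genes measured alone rose or fell (median 0.19, against 0.027 for all probe sets). The 6 include Ugt8, which makes galactosylceramide and is not a glucuronosyltransferase. The rest are the Ugt2 genes above, whose means exceeded only 5.63% to 12.8% of probe sets. The probe sets of several Ugt symbols are outside this count. Of 8 genes that supply or remove glucuronide, 1 rose and 1 fell (median 0.03). Ugdh, which makes UDP-glucuronate, rose by 0.82 ± 0.12 (adjusted p = 0.014), and Ugcg, which puts glucose on ceramide, fell by 0.50 ± 0.08 (0.0196). The first call was lost without either control vegetable oil pool, either deficient fish oil pool or control fish oil replicate 2, and the second without any of the 8 arrays compared but deficient vegetable oil replicate 1. Of 14 genes of sulfation, the parallel conjugation route, 1 rose: Sult1a1, a phenol sulfotransferase, by 0.82 ± 0.14 (adjusted p = 0.0234, lost without any 1 of 5 arrays: both control vegetable oil pools, deficient vegetable oil replicate 2, deficient fish oil replicate 1 and control fish oil replicate 2). Their median was 0.07.

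Of 13 other ABC and MATE exporters 1 rose (median 0.01). This was Abcc3, the pump of the basolateral membrane, at 9.16 and 9.45 in the control vegetable oil pools, 9.31 and 9.40 in the deficient vegetable oil pools, 9.85 and 9.70 in the necrotic pools, 10.21 and 9.97 in the control fish oil and 9.69 and 9.97 in the deficient fish oil pools. It rose by 0.63 ± 0.11 (adjusted p = 0.0232), a call lost without any 1 of the 8 arrays compared, and its necrotic and fish oil values overlapped. None of the 14 organic anion uptake carriers was called (median 0.03), nor any of 18 transcription factors of xenobiotic response and tubule identity (median 0.12).

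Lists of known targets of 2 transcription factors were read in the same comparison, which called 0.555% of all probe sets higher and 2.25% in either direction. Of 23 targets of NRF2, which controls genes against electrophiles, 11 rose and 0 fell (median 0.58). Nqo1, a quinone reductase, rose by 2.53 ± 0.21 (adjusted p = 0.00133), and the glutathione transferases Gsta3, Gstp1 and Gstm1 by 1.78 ± 0.20, 1.44 ± 0.09 and 1.24 ± 0.16. Of 26 targets of PPAR alpha, the fatty acid sensor, 13 rose and 0 fell (median 0.54), with Acaa1b, the peroxisomal thiolase, at 1.34 ± 0.14 (adjusted p = 0.00329), Pdk4, which restrains pyruvate oxidation, at 1.18 ± 0.13, Ehhadh, of peroxisomal oxidation, at 1.04 ± 0.13 and Eci1, an isomerase of fatty acid oxidation, at 0.91 ± 0.10. The call for Ehhadh was lost without control vegetable oil replicate 1 (adjusted p = 0.0507), and the other 7 calls named were kept under every alternative run. With choline 5 of the NRF2 and 3 of the PPAR alpha targets rose and 0 fell, and without choline 4 and 7 rose and 0 fell. Of all probe sets 0.0856% were called higher with choline and 0.346% without. Calls in these single comparisons depended on the arrays kept. With choline that for Nqo1 was lost without any 1 of 4 arrays, Srxn1 4, Gpx2, Acaa1b and Vnn1 6, Angptl4 3 and Gstp1 2. Without choline that for Gstm1 was lost without any 1 of 6, Ehhadh and Cpt2 5, Nqo1, Gsta3, Acaa1b and Pdk4 3 and Gstp1 1. A part of either factor in the differences of the 7 genes was not tested.

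Families of the last 3 genes were read in the average oil comparison, where 2.25% of all probe sets were called. Of 24 other claudin and tight junction genes 0 rose and 1 fell with fish oil, Cldn19 of the thick limb by 0.59 ± 0.10. Of 9 CUB, sushi and complement regulator genes 0 rose and 1 fell, Cfi, which cleaves complement, by 0.77 ± 0.10. Of 13 small leucine-rich proteoglycans 0 rose and 1 fell, Lum by 0.92 ± 0.11. The call for Cldn19 was lost without either control vegetable oil pool, either deficient fish oil pool or control fish oil replicate 1, and that for Cfi without control vegetable oil replicate 1. For lack of choline under fish oil, 0 genes of any list were called.

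The same lists were counted for necrotic against control vegetable oil kidneys, where 20.9% of all probe sets were called. Of the 14 uptake carriers 8 fell and 0 rose (median -0.94, against 0.063 for all probe sets), with Slco1a6 down by 4.31 ± 0.31 and the basolateral organic anion transporters Slc22a8 and Slc22a6 by 2.73 ± 0.30 and 2.42 ± 0.20. Of the sulfation genes 7 of 14 fell and 0 rose (median -0.80), with Sult1c2 down by 2.77 ± 0.20. Of the 13 exporters 3 rose and 3 fell (median 0.34): Abcb4, a phospholipid translocator, rose by 1.28 ± 0.15 and Slc47a1, the MATE exchanger of organic cations, fell by 1.67 ± 0.16. Abcc2 and Abcc4 were thus uncalled among exporters that went both ways.

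Of the 18 transcription factors 9 fell and 0 rose (median -0.51), among them Ppara by 1.81 ± 0.22, Hnf4a, a factor of proximal tubule identity, by 1.40 ± 0.14 and Nr1h4, the bile acid receptor, by 1.35 ± 0.18. Of the 6 other Ugt genes 1 fell, Ugt8, which makes galactosylceramide, by 1.22 ± 0.16 (adjusted p = 0.00113). The NRF2 targets went both ways, with 10 higher and 7 lower of 23, and 10 of 26 PPAR alpha targets were lower and 3 higher. Of the claudin list 3 rose and 2 fell, with Cldn4, of the distal nephron and collecting duct, up by 2.24 ± 0.23. This share of 20.8% is near that of all probe sets. Of the complement regulators 3 rose and 1 fell, and of the proteoglycans 2 rose and 2 fell.

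**Figure D4:**
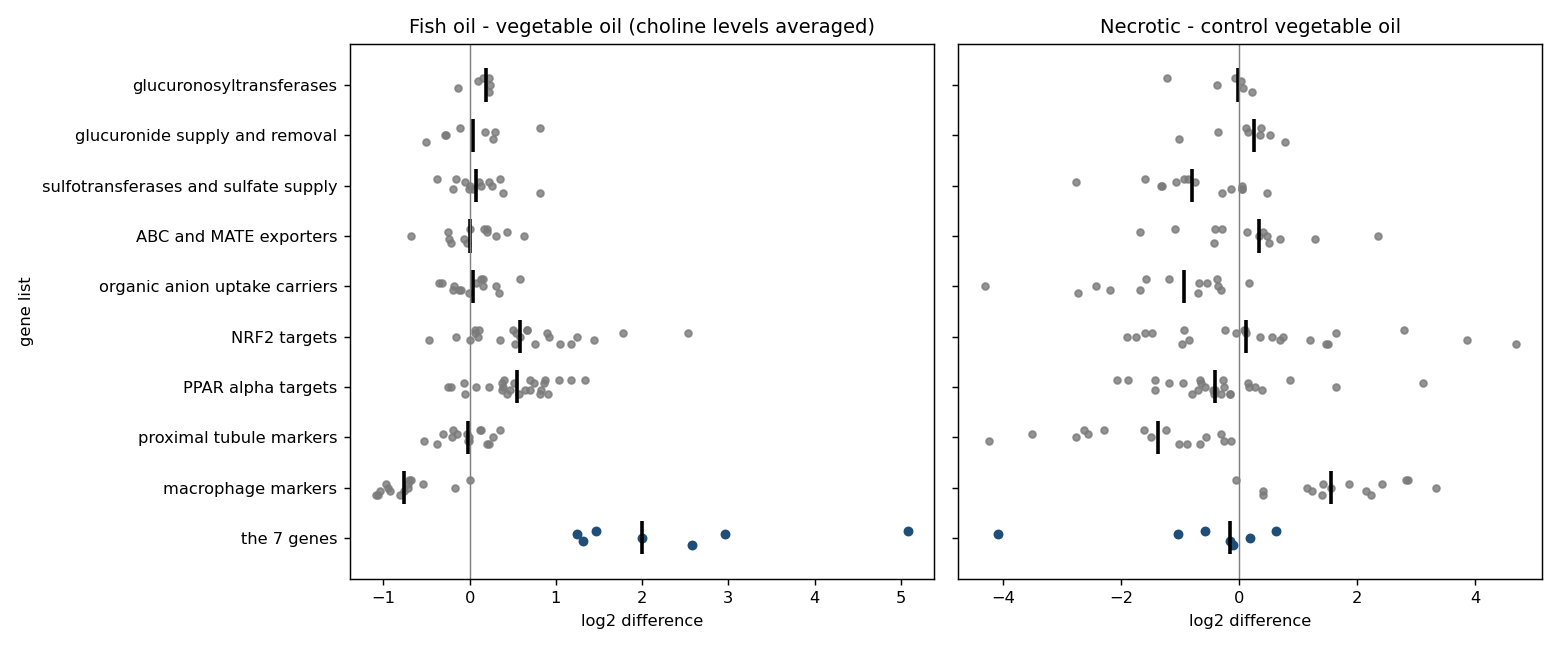
Log2 differences of single genes (grey points), with the list median as a black bar, for fish oil against vegetable oil averaged over choline (left) and necrotic against control vegetable oil kidneys (right); the 7 genes are in blue. On the left the 7 lie between 1.24 and 5.08 and the NRF2 and PPAR alpha medians at 0.58 and 0.54; on the right the proximal tubule median is -1.37 and the macrophage median 1.56.

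As a description, the likeness of patterns was measured by Pearson's r over the 10 arrays, which share 5 groups, against 14499 other genes. Closest to Ugt2b7 were Mgst1, a membrane glutathione transferase (0.98), Creb3l3 (0.967) and Pir (0.961), and closest to Csmd1 were Mgst1 (0.99), Creb3l3 (0.976) and Pir (0.967). For Abcc2 they were Creb3l3 (0.981), Mgst1 (0.968) and Ugdh (0.959), and for Abcc4 Creb3l3 (0.979), Mgst1 (0.978) and Htatip2 (0.971). These 4 genes had 2 nearest genes in common. Ugt2b35 was closest to Me1, cytosolic malic enzyme (0.994), Chuk (0.992) and Aco1 (0.986), Tsku to Acyp1 (0.964), Acadl (0.964) and Slc17a3 (0.963), and Cldn17 to Ugdh (0.946), Pex11a (0.942) and Gstp1 (0.934). Between the 7 genes r ran from 0.56 for Ugt2b35 and Cldn17 to 1 after rounding for Ugt2b7 and Csmd1. The 7 were chosen as higher under fish oil on these same arrays. High r between them, and nearest genes in common, follow in part from that choice, so nothing is read from them.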

How the data were processed

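The authors deposited log2 intensities of 29214 probe sets, summarised by RMA per the submitters' processing notes; software version, probe set definition and genome build: not given in the sources used here. Annotation of the platform lists 15633 of the probe sets, of which 15310 carry 1 gene symbol, and these name 14506 genes. Values entered the fit as deposited. One limma model (version 3.58.1 under R 4.3.3) held all 5 groups, with residual degrees of freedom of 5 and prior ones of 3.59. P-values were adjusted by Benjamini-Hochberg over all probe sets of each of 10 contrasts (threshold 0.05). They reflect the spread between pools of 3 animals. Having 10 arrays limits the precision. The fit was tested on simulated data, with changes added to the deficient fish oil group only and 1 contrast read. That test does not cover the other contrasts or the choice of the genes. RNA was labelled with a whole-transcript kit, per the labels' protocols.

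The 7 genes, the 19 gene lists and the tests were chosen with earlier results of these data known. Named genes are the 7, the other measured Ugt and Abcc genes, up to 4 called genes with the largest difference per list and contrast, and the 3 genes most like each of the 7. The Ugt2b35 window was added after values were seen. Alternatives were 3 further scalings (median centring, cyclic loess, quantile normalization), 2 filters on dim probe sets (25th and 50th percentile), a robust prior with trend, fitting only the compared groups, a replicate block, the mean of a gene's probe sets, and leaving out each array. Promoter windows came from RefSeq (GRCr8) and were aligned with Biopython 1.88 under Python 3.11.15; figures used numpy 2.4.6, pandas 2.3.3 and matplotlib 3.10.9.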

Additional observations from a re-analysis of the deposited data

Results flagged for a closer look

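The interaction term of limma that sets the necrotic kidneys in place of the deficient vegetable oil kidneys was called for 2 of the 7 genes. Of all probe sets 4.9% were called higher in it and 8.72% in either direction. With the deficient vegetable oil kidneys themselves, it was called for 0 of the 7. The term is a difference between 2 oil differences, so it is not independent of how the genes were chosen. For Ugt2b35 the term was 3.24 ± 0.84 (adjusted p = 0.0496), from a difference of -4.08 between necrotic and control vegetable oil kidneys and of -0.85 between deficient and control fish oil kidneys. For Tsku it was 1.01 ± 0.20 (adjusted p = 0.0188), from -1.04 and -0.03. The first call was lost without any 1 of 7 of the 8 arrays compared and under 3 other settings, and the second without any 1 of 6 arrays. In the same contrast 12 of 16 proximal tubule markers were called higher (median 1.45), 11 of 17 markers of thick limb, distal tubule and collecting duct higher (median 1.46) and 10 of 15 macrophage markers lower (median -1.62), and their part was not tested.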

How the results depend on the processing

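For results on the 7 genes there were 19 alternatives, of which 9 changed the scaling, filter, model or probe set and 10 left out 1 array each. Counts of probe sets had 18 and genes of the lists 16 to 18. The count of the 7 genes called stayed at 0 for lack of choline under fish oil and for the dependence on oil without necrosis under all of these. For lack of choline under vegetable oil it was 1 after median centring, with the filter at the 50th percentile and with the trend and robust prior, Tsku each time. In the necrotic against control vegetable oil comparison it ran from 2 to 4. Against deficient vegetable oil it was 0 when only these groups were fitted and from 0 to 1 without 1 array. The count for the dependence on oil with necrosis was 1 with quantile normalization again, cyclic loess or the trend and robust prior, and from 0 to 2 without 1 array.

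Sign changes touched only uncalled values. Lack of choline under vegetable oil moved Csmd1 to -0.03, -0.07 and -0.03 with median centring, quantile normalization and cyclic loess (-0.11 to 0.17 without 1 array). The dependence on oil with necrosis was 0.11 and 0.12 for Abcc4 with median centring and the mean of its probe sets (-0.18 to 0.17 without 1 array). Other ranges without 1 array that crossed 0 were as follows. Under fish oil they were -0.34 to 0.02 for Abcc4, -0.36 to 0.16 for Cldn17, -0.06 to 0.01 for Tsku and -0.21 to 0.07 for the probe set of 8 Ugt1a symbols. Under vegetable oil they were -0.02 to 0.16 for Abcc4 and -0.06 to 0.35 for Cldn17. In the necrotic kidneys Csmd1 ran from -0.30 to 0.07 against control and from -0.33 to 0.05 against deficient vegetable oil. For the dependence on oil they were -0.21 to 1.65 for Ugt2b35 and -0.51 to 0.02 for Cldn17 without necrosis, and -0.29 to 0.03 for Ugt2b7 with it. The cause was not tested.

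The oil differences kept their sign throughout. Without 1 array those that moved by more than the gene's residual SD over the 5 groups ran, with choline, from 5.06 to 5.38 for Ugt2b7 and, without it, from 2.39 to 4.25 for Ugt2b35, 1.03 to 1.38 for Abcc4 and 1.07 to 1.59 for Cldn17. Against the necrotic kidneys they ran from 1.25 to 1.60 for Abcc4, 2.32 to 2.70 for Csmd1, 0.58 to 1.11 for Cldn17 and 1.78 to 2.11 for Tsku. With the mean of its 3 probe sets Abcc4 was at 1.35 against deficient vegetable oil and 1.58 against the necrotic kidneys.

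Counts of probe sets called depended on the arrays kept and the setting: 330 for lack of choline under vegetable oil became 32 to 714 without 1 array, 6098 for necrosis against control 3003 to 6431, 2860 for necrosis against deficient vegetable oil 1040 to 3125, and 54 and 507 for oil with and without choline 3 to 76 and 87 to 691. For oil against the necrotic kidneys 5763 became 3324 to 6084, for the average oil difference 656 became 130 to 798, and for the dependence on oil 30 became 0 to 90 without and 2548 became 955 to 2945 with necrosis. Under the other settings the counts that moved by over 1.5 times were 82 to 542 for lack of choline under vegetable oil, 654 for necrosis against deficient vegetable oil, 11 to 87 for the dependence on oil without necrosis, 5 to 124 for oil with choline and 25 for oil without choline. The low ends came from fitting only the compared groups, or from the replicate block (11).

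Over all probe sets, the differences between replicates 1 and 2 correlated between groups at -0.17 to 0.14. What the replicate numbers stand for is not stated, so these low values cannot settle whether same-numbered pools were paired. With the replicate block the counts of the 7 genes called were 0, 0, 3, 1, 0 and 2 in the order of the 6 comparisons above.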
